A study of Mus musculus with 2 samples.

Results

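The genes described here encode the main heat shock protein families of the mouse and the chaperonins, the ring-shaped or barrel-shaped chaperones that enclose a folding protein. They were chosen by name: protein-coding genes whose symbol begins with Hspa, Hspb, Dnaja, Dnajb, Dnajc or Cct and a digit, or with Hsp90, and the genes Hspd1, Hspe1 and Hsph1. The rule used no measured value, and it took 80 of the 43346 genes in the tables. The study sequenced 2 libraries, and for each the starting material was a pool of 50 layer V pyramidal neurons, which are excitatory projection neurons of the deep cerebral cortex. The neurons were taken by laser capture from wild-type male mice aged 8 months, with the strain written as B6NCrl in one label and as C57Bl5 or C57Bl6 in others, and an antibody entry reading "Control". The libraries, labelled biological replicates 1 and 2, were made by a Smart-seq protocol from RNA longer than 200 nt with spike-in RNAs added. They form 1 group. Because the labels give them a single donor identifier, the spread between them may not include that between animals and may be partly technical. Values are given as mean ± SD with n = 2 where they are averaged. There was no second condition, so no test between groups was possible and the differences below are differences between 2 pools.

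Chaperones bind unfolded stretches of other proteins and use cycles of ATP binding and hydrolysis to let them fold, to carry them to a membrane or to hand them to degradation. HSP70 proteins are the general-purpose members: J-domain proteins (DNAJA, DNAJB, DNAJC) bring substrates to them and trigger ATP hydrolysis, and HSP110 proteins exchange the nucleotide. HSP90 acts later on a set of kinases, receptors and other clients, small heat shock proteins hold aggregation-prone proteins without ATP, and the CCT ring folds actin and tubulin. Neurons keep their proteins for long times and send many of them far down an axon, and several J-domain proteins have posts at the synapse.

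Replicate 1 held 24171434 estimated reads and replicate 2 held 27946180, of which spike-ins took 4.28% and 5.32%. Levels are given as TPM, a share of all transcripts that corrects for transcript length and so allows genes to be compared within a library. A gene was called detected at TPM of at least 1. All 6 glutamatergic neuron markers were detected in each pool and summed to 606 and 784 TPM. Slc17a7 stood at 31.9 and 49.3 TPM and Camk2a at 83.4 and 84.4 TPM among them. Markers of other cells were detected as well. The 7 interneuron markers summed higher, to 3874 and 1494 TPM, of which Sst held 2506 and 844. The 7 astrocyte markers summed to 533 and 625 TPM, the 6 oligodendrocyte markers to 487 and 621 and the 7 microglia markers to 128 and 49.8. The 5 endothelial markers summed to 106 and 93.0 TPM and the 6 pericyte or smooth muscle markers to 25.4 and 33.1 TPM. No marker lacked reads in both pools, and Vip, an interneuron neuropeptide, was at 153 TPM in the first pool and at 0.03 TPM in the other. What part RNA of these other cells had in the chaperone levels was not tested, and in pooled RNA fewer cells of a type and less RNA per cell cannot be told apart.

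The chaperone genes were abundant as a group and led by 3 of them. Their median was 23.6 TPM in replicate 1 and 24.4 in replicate 2, against 1.87 and 1.69 TPM for the 21837 protein-coding genes. In each library 66 of the 80 were detected, the same 66 in both, whereas 12009 and 11726 of the coding genes were. The 80 genes held 1.19% and 1.24% of the TPM of all coding genes. Hsp90aa1, Hspa8 and Hsp90ab1 together held 53.4% and 55.0% of the chaperone TPM (54.2% ± 1.17, SD, n = 2). By family the mean shares of the chaperone TPM were 37.6% for HSP90 (3 genes), 22.7% for HSP70 and HSP110 (13 genes), 13.3% for DNAJC (28 genes) and 9.67% for the Cct genes (9 genes). DNAJA (4 genes) held 5.67%, DNAJB (13 genes) 5.51%, HSP60 with HSP10 (2 genes) 4.58% and the small heat shock proteins (8 genes) 0.97%.

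**Figure D1:**
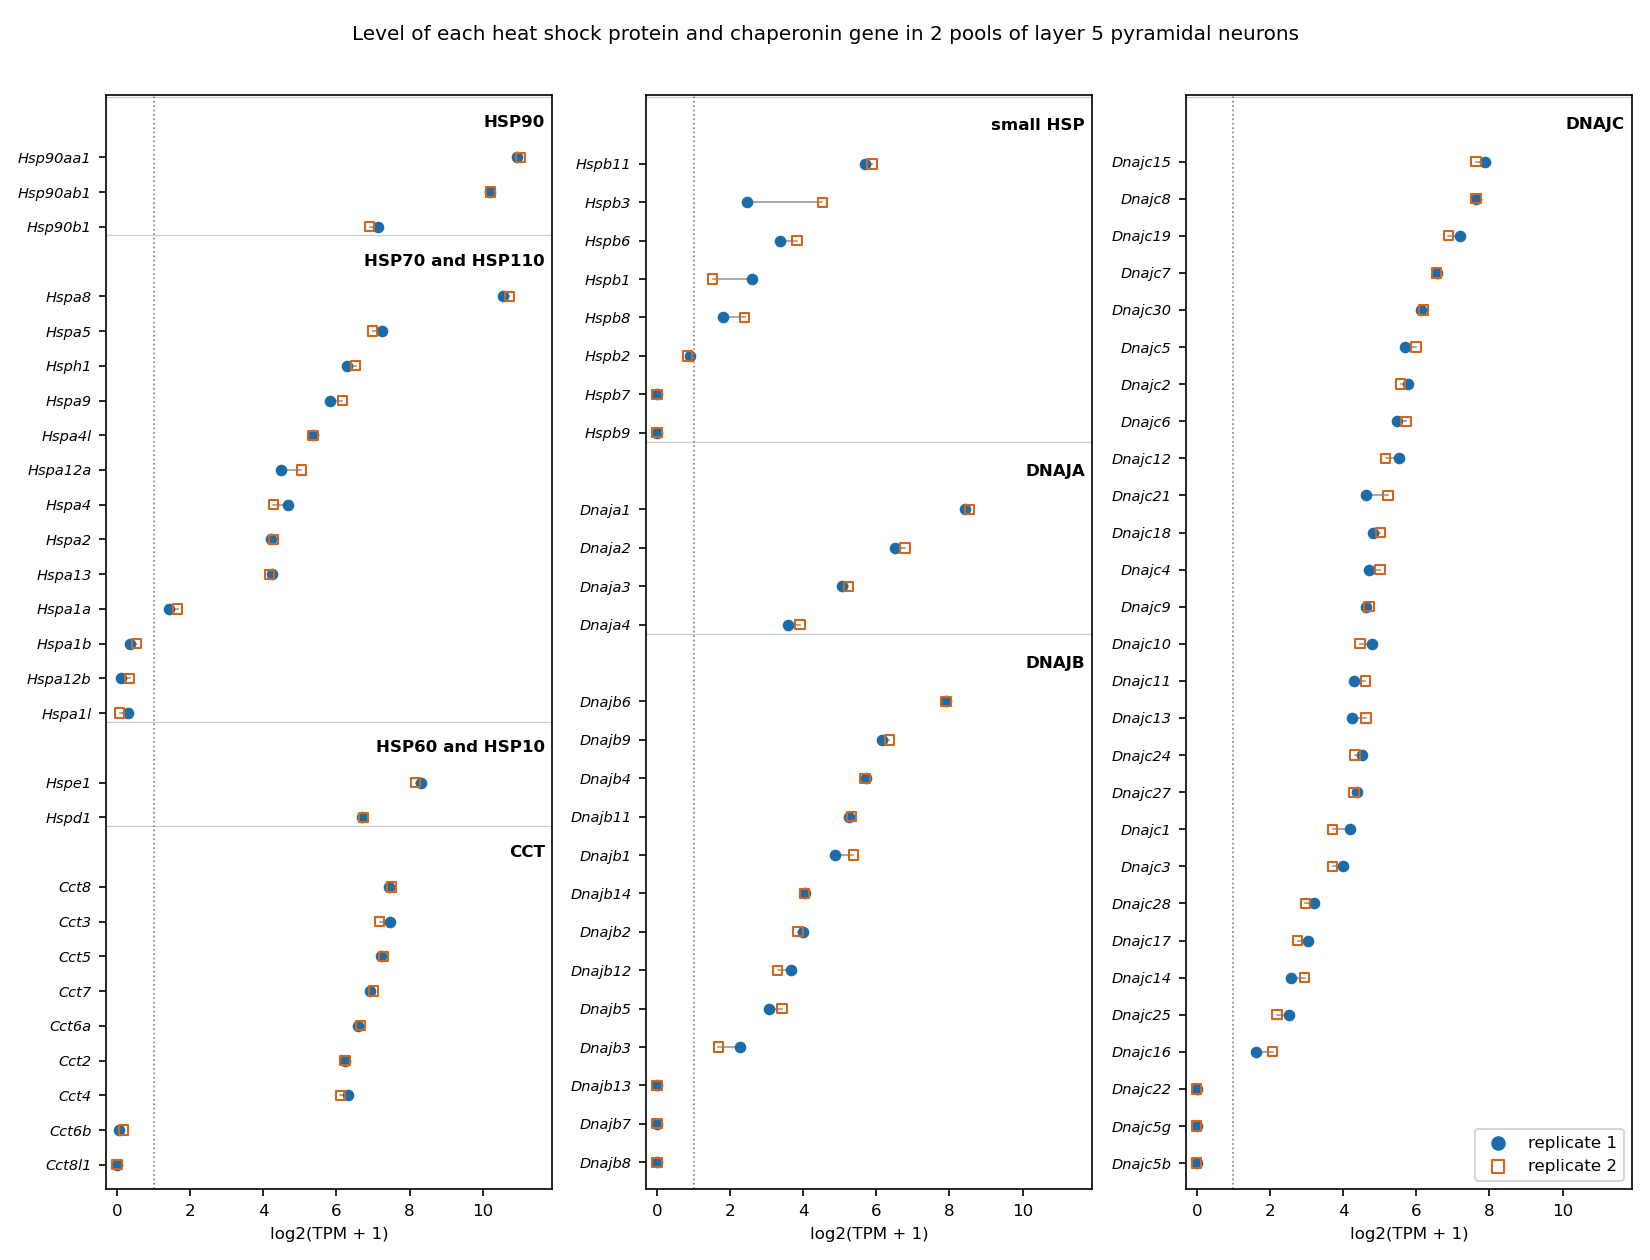
Level of all 80 chaperone genes by family, as log2(TPM + 1) on the horizontal axis, with a filled circle for replicate 1 and an open square for replicate 2. The dotted line marks 1 TPM, below which 14 genes lie in both pools, and the symbols of most detected genes nearly coincide, with Hspb3 (4.55 and 22.0 TPM) the widest pair.

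Hsp90aa1 (ENSMUSG00000021270, chr12:110690605-110702728, minus strand, mm10), the cytosolic HSP90 that is raised by heat, had the highest level of the 80. Its TPM was 1972 in replicate 1 and 2102 in replicate 2 (2037 ± 91.7, SD, n = 2), above 99.8% and 99.9% of coding genes. Hsp90ab1 (ENSMUSG00000023944, chr17:45567775-45573271, minus strand), the cytosolic form known as constitutive, stood at 1168 and 1184 TPM (1176 ± 11.1, SD, n = 2). The inducible form thus exceeded the constitutive one in each pool, by a TPM ratio of 1.69 and 1.78 (1.73 ± 0.06, SD, n = 2). In replicate 1 a transcript of 711 nt held 888 TPM of Hsp90aa1 and one of 703 nt held 569 TPM of Hsp90ab1. The size of the ratio therefore rests in part on short transcripts, which its SD does not cover. Of the 31-base words of Hsp90aa1 51.4% recur in another gene, most of them in the pseudogene Gm12346, which was listed at 7.75 and 8.05 TPM. Hsp90b1, the HSP90 of the endoplasmic reticulum, stood at 139 and 119 TPM, below Hsp90ab1 by a ratio of 8.43 and 9.98.

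Among HSP70 genes the cognate form dominated. Hspa8 (ENSMUSG00000015656, chr9:40800984-40810087, plus strand), the constitutive HSC70 that also strips clathrin coats from vesicles, stood at 1510 and 1692 TPM (1601 ± 129, SD, n = 2). Hspa1a, one of the classical heat-inducible HSP70 genes, stood at 1.70 and 2.15 TPM from 98 and 138 reads, so that the TPM of Hspa8 was 888 and 787 times higher. Its near-identical neighbour Hspa1b stood at 0.27 and 0.44 TPM, under the detection limit. The pair share reads: 65.4% of the 31-base words of Hspa1a transcripts and 68.0% of those of Hspa1b occur in another gene, so how their reads divide is uncertain, though both values are low in both pools.

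The other HSP70 genes were read at intermediate levels. Hspa5, the BiP chaperone of the endoplasmic reticulum, stood at 152 and 126 TPM and tracked Hsp90b1, its partner there, with a ratio of 1.10 and 1.06. Hspa9, the mitochondrial HSP70 mortalin, stood at 56.0 and 70.4 TPM. Hspa2, best known from the testis, stood at 17.6 and 18.5 TPM and Hspa13, a microsomal form, at 17.9 and 17.0 TPM, and these pairs differed little. Hspa12a, a distant relative, stood at 21.3 and 32.0 TPM, with 2395 and 4032 reads. In Hspa8 43.5% of the 31-base words recur elsewhere, most of them in the processed pseudogene Gm15459, listed at 9.63 and 11.6 TPM. Hspa12b, at 0.08 and 0.27 TPM, and Hspa1l, at 0.22 and 0.05 TPM, were under the detection limit in both pools.

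The HSP110 nucleotide exchange factors differed in level from each other. Hsph1 was the highest at 76.7 and 91.1 TPM, Hspa4l followed at 39.8 and 40.0 TPM, and Hspa4 stood at 24.4 and 18.4 TPM. The order was the same in both pools. Hspa4l exceeded Hspa4 by a TPM ratio of 1.64 and 2.18 (1.91 ± 0.38, SD, n = 2).

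Hspd1 and Hspe1 encode the mitochondrial chaperonin HSP60 and its lid HSP10, and they lie head to head on chromosome 1. Hspe1 (chr1:55088132-55091307, plus strand) stood at 319 and 286 TPM and Hspd1 (chr1:55077835-55088243, minus strand) at 102 and 106 TPM. The lid gene was thus higher in each pool, with a TPM ratio of 3.12 and 2.70 (2.91 ± 0.30, SD, n = 2). Their read counts lay closer, 4313 and 4328 for Hspe1 and 4138 and 5143 for Hspd1, and in replicate 2 Hspd1 had more reads. TPM divides by length and the HSP10 transcript is short, so similar counts give Hspe1 the higher TPM. Exons of the pair overlap by 112 bases on opposite strands, and whether strand was used in counting is not given in the sources used here. Processed copies of Hspd1 also share its sequence: 50.1% of its 31-base words recur in another gene. For Hspe1 the share was 24.8%, most of it with the gene AC117239.2.

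The start sites of Hspd1 and Hspe1 share a short promoter, and its sequence shows what the pair have in common. RefSeq promoter windows of 300 bases (250 before to 50 after each start, GRCm38.p6) were found for 65 of the 80 genes. They were searched on either strand for a heat shock element, the site of heat shock factors, written as the units GAA, TTC and GAA with 2 bases of any kind (NN) between neighbouring units, or its complement TTC, GAA and TTC. Of all 32851 windows 198 (0.603%) held it, and of the 27025 genes with a window 179 (0.662%) did. Among the chaperone genes 4 did: Hspd1, Hspe1, Dnajb6 and Hsph1. Of the 10 genes listed here as heat-inducible, which include the constitutive Hspa8, 8 had a window and 3 of these held the element. The stretches that hold it are shown 5′ to 3′ on the strand of the gene, with the matched bases in capitals.
Hspe1, chr1:55088053-55088082, plus strand: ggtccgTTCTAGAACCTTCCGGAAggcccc
Dnajb6, chr5:29735844-29735873, plus strand: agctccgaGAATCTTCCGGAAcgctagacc
Hsph1, chr5:149636279-149636308, minus strand: gctgcagaTTCTGGAAAGTTCtcctcagta
In Hspe1 there are 2 overlapping matches, which begin 89 and 84 bases before its start. The same bases, read on the minus strand, are the Hspd1 matches, which begin 144 and 139 bases before that start. The Dnajb6 match begins 46 bases before its nearer start, and the Hsph1 match lies after the start, at base 16 from the nearer of the starts. A match of letters is a description and not a binding site shown by these data, and a window without one says only that these letters are absent there.

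The CCT ring is built from 8 different subunits, 1 of each per ring, and all 8 genes were detected. Tcp1, the subunit whose symbol falls outside the naming rule, stood at 185 and 188 TPM. Cct8 followed at 172.5 and 180 TPM, Cct3 at 176 and 144, and Cct5 at 149 and 156. Cct7 stood at 121 and 129 TPM, Cct6a at 94.9 and 99.5, Cct4 at 78.8 and 67.8, and Cct2 at 73.7 and 74.2. The subunit RNAs were therefore not equal: the highest exceeded the lowest 2.51-fold and 2.77-fold (2.64 ± 0.18, SD, n = 2). Neighbours in this order, such as Cct2 and Cct4 or Cct3, Cct5 and Cct8, swapped places between the pools, while Tcp1 was at the top in each and Cct2 or Cct4 at the bottom. A like range was found in the 20S proteasome core, another complex of fixed make-up, whose 14 subunits spanned 2.24-fold and 2.73-fold. Such a range tends to grow with the number of subunits. The SD among subunits, as a percent of their mean, was larger in the ring (34.5% and 35.2%) than in the core (25.7% and 28.3%). The proteasome genes stood higher, at medians of 371 and 357 TPM against 135 and 137 TPM for the ring.

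**Figure D2:**
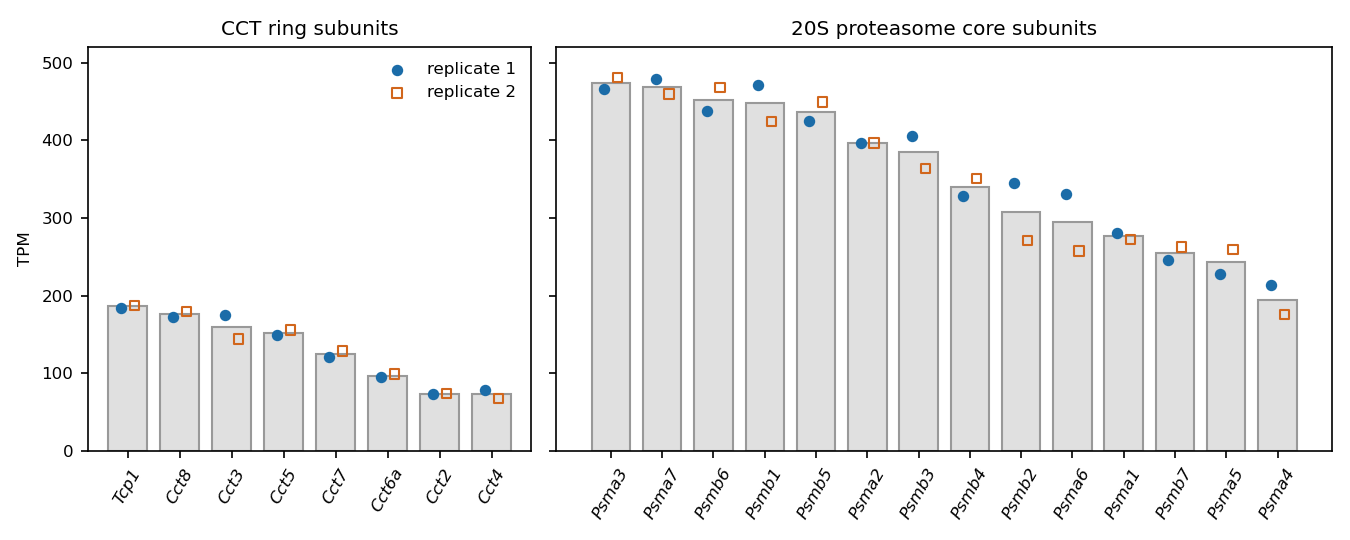
TPM of the 8 CCT ring subunits (left) and the 14 subunits of the 20S proteasome core (right), with bars for the mean of the libraries, circles for replicate 1 and squares for replicate 2. The ring subunits lie between 67.8 and 188 TPM and all proteasome subunits but Psma4 in replicate 2 (176 TPM) lie above them.

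Relatives of the ring genes were at the floor. Cct6b, a paralog of Cct6a known from the testis, stood at 0.03 and 0.13 TPM, and Cct8l1 had no read in either library. In all, 9 of the 80 genes had no read in either pool: Cct8l1, Dnajb7, Dnajb8, Dnajb13, Dnajc5b, Dnajc5g, Dnajc22, Hspb7 and Hspb9. No read allows up to 3 reads, a limit of 0.13 CPM (the read count scaled to library depth) in replicate 1 and 0.11 CPM in replicate 2 that covers counting error only. Of the 9 genes listed as testis or germ cell forms 2 were detected, Hspa2 and Dnajb3, the latter at 3.83 and 2.20 TPM.

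Small heat shock proteins were low, and this family held the pair of values that stood farthest apart. The highest was Hspb11, at 50.4 and 58.0 TPM, which is also known as the ciliary transport protein IFT25. Hspb6, known from muscle and heart, stood at 9.25 and 13.3 TPM. Hspb8, a partner of the co-chaperone Bag3, stood at 2.48 and 4.27 TPM, and Hspb2 was under the detection limit at 0.88 and 0.78 TPM. Of the Hspb2 exon bases 30.2% overlap Cryab on the opposite strand. Hspb3 was low in replicate 1 and higher in replicate 2, at 4.55 and 22.0 TPM. Its reads numbered 62 and 336, a ratio of normalized reads of 4.83 for replicate 2 over replicate 1 (95% exact interval 3.68 to 6.44). Hspb1, the HSP25 gene that is strongly raised by heat and injury, went the other way at 5.04 and 1.87 TPM, with 81 and 34 reads and a ratio of 2.67 for replicate 1 over replicate 2 (95% exact interval 1.77 to 4.11). These intervals cover counting error only, and with 1 library a side there is no replicate check. Of the 6 pericyte or smooth muscle markers, Acta2 (11.6 and 0.21 TPM), Tagln (4.40 and 0.15) and Myh11 (0.88 and 0.16) were higher in replicate 1. Vtn (4.39 and 25.7 TPM), Rgs5 (4.07 and 5.83) and Pdgfrb (0.03 and 1.06) were higher in replicate 2. Their part in the small heat shock protein values was not tested.

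J-domain proteins were the most numerous, and all 4 DNAJA genes were detected. Dnaja1, the general J-domain partner of cytosolic HSP70, was the fourth most abundant chaperone gene at 340 and 374 TPM. The TPM of Hspa8 exceeded that of Dnaja1 by 4.44 and 4.52 (4.48 ± 0.06, SD, n = 2). Dnaja2, its close paralog, stood at 89.9 and 109 TPM. The mitochondrial form Dnaja3 was lower, at 32.3 and 36.7 TPM, and Dnaja4 the lowest, at 10.9 and 14.01 TPM. For Dnaja4, 44.1% of the exon bases overlap those of Wdr61 on the opposite strand, so its value is uncertain if strand was not used. Exons of 30 of the 80 genes overlap another gene, in 28 cases on the opposite strand.

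In the DNAJB family 10 of 13 genes were detected, and 1 gene led. Dnajb6, known for holding back polyglutamine aggregates, stood at 239 and 239 TPM (239 ± 0.32, SD, n = 2). Next came Dnajb9, an endoplasmic reticulum protein, at 70.0 and 81.0 TPM and Dnajb4, a cytosolic form, at 51.4 and 50.5 TPM. Dnajb11, which serves BiP in the endoplasmic reticulum, stood at 36.8 and 39.0 TPM. Dnajb1, the heat-inducible J-domain protein, stood lower, at 28.3 and 40.3 TPM. Dnajb14 stood at 15.6 and 15.4 TPM, Dnajb12, like Dnajb14 a protein of the endoplasmic reticulum membrane, at 11.8 and 8.83, and Dnajb2, known from neurons, at 15.0 and 13.5.

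The DNAJC genes, which carry the J domain on otherwise varied proteins, were detected in 25 of 28 cases, and their leaders have special posts. Dnajc15 and Dnajc19, which act at the import motor of the mitochondrial inner membrane, were read at 235 and 198 TPM for the former and 147 and 116 TPM for the latter. Dnajc8, a protein associated with the spliceosome, stood at 199 and 198 TPM. Dnajc7, a co-chaperone that binds both HSP70 and HSP90, stood at 94.2 and 93.4 TPM, and the mitochondrial Dnajc30 at 68.4 and 72.8 TPM. The synaptic members were also among the highest 12. Dnajc5, the cysteine string protein of synaptic vesicles, stood at 50.9 and 62.6 TPM. Dnajc6, the neuronal auxilin that recruits HSC70 to clathrin coats, stood at 43.4 and 51.8 TPM, and the ratio of the former to the latter was 1.17 and 1.21. The paralogs Dnajc5b and Dnajc5g had no read, so among the cysteine string protein genes Dnajc5 alone was detected in these pools.

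The remaining DNAJC genes of the highest 12 were read at 23.8 to 54.2 TPM. Dnajc2, which sits on the ribosome, stood at 54.2 and 46.6 TPM. Dnajc12, known for its part in the folding of aromatic amino acid hydroxylases, stood at 45.1 and 34.8 TPM, and Dnajc21, a factor of ribosome assembly, at 23.8 and 36.6 TPM. Dnajc18 stood at 27.4 and 31.4 TPM and Dnajc4 at 25.1 and 31.3 TPM.

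Regulators and co-chaperones from a list of 47 genes gave the setting of these values. In each library 43 were detected, 42 of them in both, with medians of 40.4 and 37.3 TPM. Hsbp1, which binds heat shock factor 1 and restrains it, was the highest at 790 and 603 TPM. The prefoldin subunits Pfdn5 and Pfdn6, which pass actin and tubulin to the CCT ring, were read at 558 and 505 TPM for Pfdn5 and 224 and 204 TPM for Pfdn6. Of the HSP90 and HSP70 partners, Ptges3 (p23) stood at 352 and 372 TPM, the ubiquitin ligase Stub1 (CHIP) at 191 and 222, Bag1 at 180 and 210, and St13 (HIP) at 162 and 188. Hsf1 itself, the main heat shock factor, was low at 6.49 and 6.70 TPM. Cryab, a small heat shock protein of glia and muscle that is not in the named set, stood at 126 and 88.4 TPM, above every Hspb gene in each pool.

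The chaperone genes differed little between the pools. Ratios were taken as log2((CPM + 1)/(CPM + 1)) of replicate 1 over replicate 2, where CPM is the count scaled to the depth of the library by TMM, at a mean CPM of at least 10. Of the 59 chaperone genes that passed this minimum 0 differed at least 2-fold, whereas 4.47% of all 9189 genes did. At a limit of 1.5-fold 3 chaperone genes (5.08%) passed, against 16.8% of all genes. The median log2 ratio was -0.09 for the chaperone genes and -0.02 for all genes, and the median size of the ratio regardless of sign was 0.21 and 0.26. No test was made of these shares, and abundant genes vary less, as the plot of ratio against abundance shows. At a mean CPM of at least 1, 66 chaperone genes passed and 1 differed at least 2-fold, Hspb3 with a log2 ratio of -1.92, where 10.4% of 14332 genes did. Hspb1, at 0.96, fell short because of the pseudocount, and with a pseudocount of 0.5 CPM its log2 ratio was 1.14. Around the minimum of 10, Hspb6 lay just inside at 12.2 CPM and Hspb3 just outside at 7.74 CPM. None of the 37 co-chaperones and regulators that passed the minimum differed 2-fold.

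**Figure D3:**
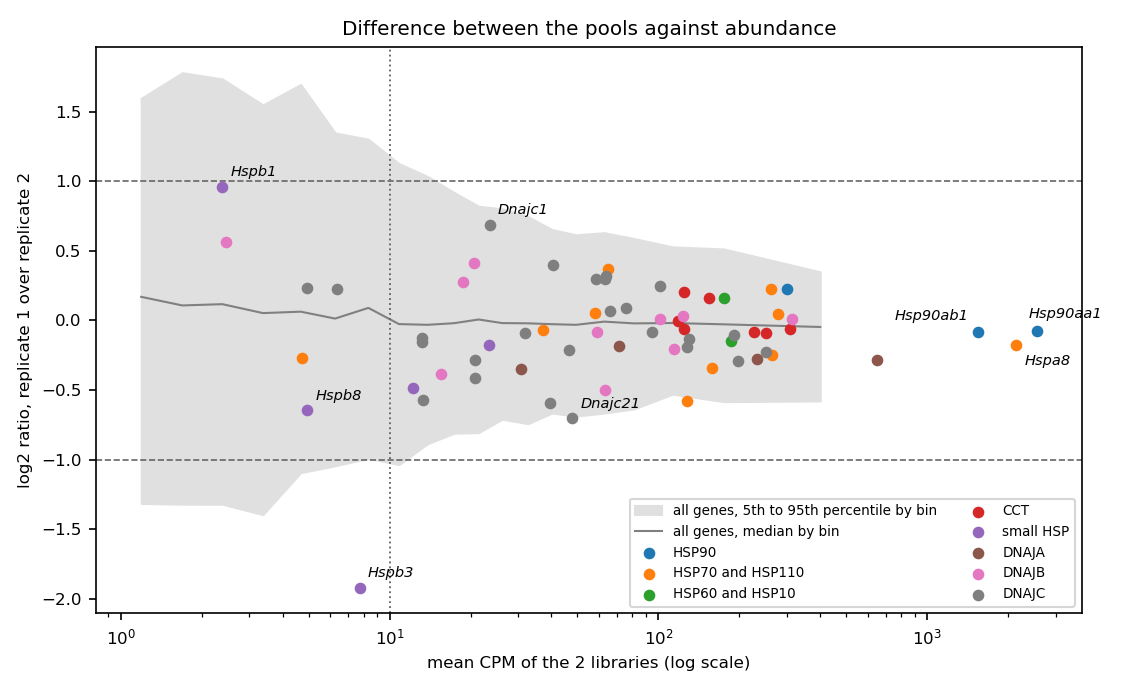
Log2 ratio of replicate 1 over replicate 2 against mean CPM (log scale) for the 66 chaperone genes at a mean CPM of at least 1, coloured by family. The grey band spans the 5th to 95th percentile of all genes in bins of abundance, dashed lines mark 2-fold, the dotted line marks 10 CPM, and Hspb3 at -1.92 is the 1 point beyond a dashed line.

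The 3 genes past 1.5-fold were all DNAJC genes. Dnajc1, a membrane protein of the endoplasmic reticulum, was higher in replicate 1, at 17.2 and 12.2 TPM with a log2 ratio of 0.69 from 685 and 467 reads. Dnajc21 was higher in replicate 2, with a log2 ratio of -0.70 from 846 and 1561 reads, and so was Dnajc13, an endosomal protein, at 17.8 and 23.7 TPM and -0.60. The next highest ratios were those of Dnajb12 at 0.41 and Dnajc12 at 0.40, and the next lowest that of Hspa12a at -0.58. With library sizes scaled to the spike-ins instead, the ratio of Dnajc1 became 1.03, and those of Dnajc21, Dnajc13 and Hspa12a kept their sign at -0.35, -0.25 and -0.23.

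Grouped by place and induction, the endoplasmic reticulum genes and the heat-inducible genes had medians of opposite sign with TMM scaling, but not with spike-in scaling. For the 8 endoplasmic reticulum genes the median levels were 31.6 and 30.0 TPM. Their median log2 ratio was 0.23, with 6 of 8 above 0, where 4349 of all 9189 genes lay above 0. Hspa5 and Hsp90b1 both had a log2 ratio of 0.23, and Dnajc3 and Dnajc10 both had 0.29. Dnajb9 and Dnajb11, at -0.21 and -0.08, went the other way. Of the 10 genes listed as heat-inducible, the constitutive Hspa8 among them, 9 were detected. Medians over the list were 89.5 and 98.5 TPM, and 7 passed the minimum of 10 CPM. Hspb1 (0.96), Hspa1a (-0.27) and Hspa1b (-0.31) did not pass it. The median log2 ratio of the 7 was -0.17, with 1 above 0 (Hspe1 at 0.16) and 6 below, down to -0.50 for Dnajb1. Of all 59 chaperone genes 38 lay below 0. With spike-in scaling the median of all genes moved from -0.02 to 0.33. That of the heat-inducible genes turned to 0.18 (6 of 7 above 0) and that of the endoplasmic reticulum genes became 0.59 (8 of 8 above 0). Both medians then lay above 0, so the direction of the heat-inducible list depends on the scaling. No gene of these lists that passed the minimum differed 2-fold. Marker sums moved both ways between the pools. Those of interneurons (3874 and 1494 TPM), microglia (128 and 49.8) and endothelium (106 and 93.0) were higher in replicate 1. The endothelial markers were split. Itm2a (65.8 and 42.4 TPM) and Pecam1 (1.07 and 0.85) were higher in replicate 1. Ly6c1 (34.6 and 42.5 TPM), Cldn5 (2.28 and 4.96) and, by little, Flt1 (2.24 and 2.26) were higher in replicate 2. The sums of glutamatergic neurons (606 and 784), oligodendrocytes (487 and 621), astrocytes (533 and 625) and pericytes or smooth muscle (25.4 and 33.1) were higher in replicate 2. Markers within these lists went both ways. Among neurons Nrgn (335 and 521 TPM) was higher in replicate 2 but Tbr1 (36.7 and 23.1) and Neurod6 (103 and 89.5) in replicate 1. Among astrocytes Aldoc (272 and 326) was higher in replicate 2 but Slc1a3 (45.6 and 37.0) and Gja1 (21.6 and 14.1) in replicate 1. The median log2 ratio at 10 CPM or more was 0.005 for glutamatergic, 0.03 for astrocyte and -0.40 for oligodendrocyte markers. What part these cell types had in the differences was not tested.

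**Figure D4:**
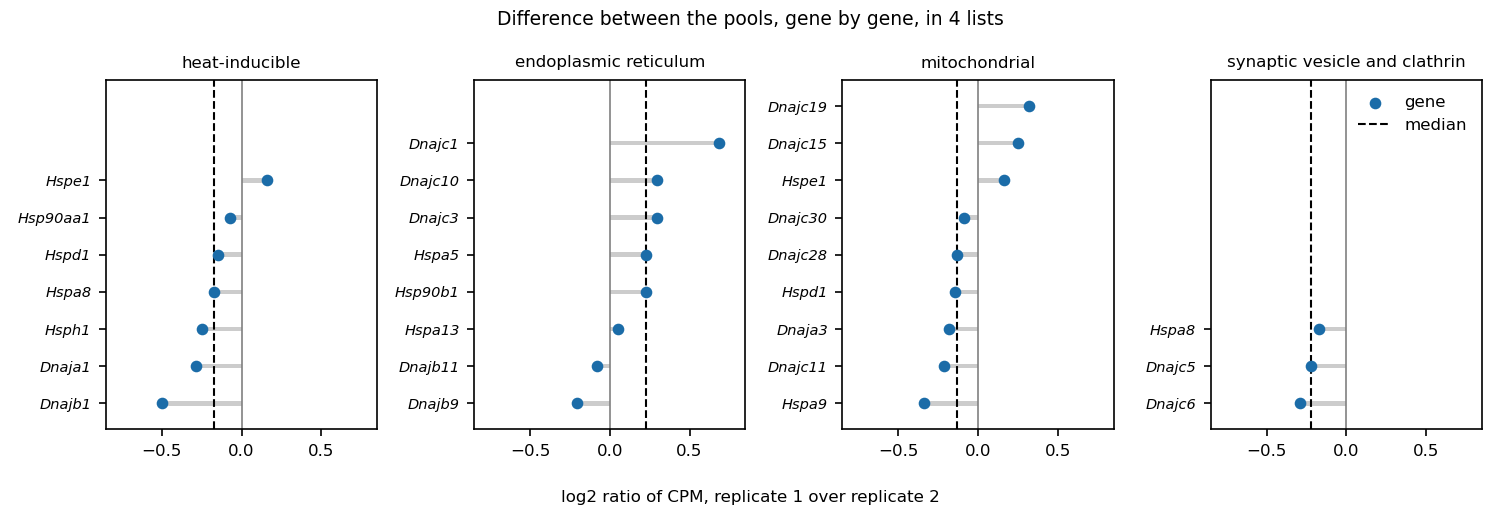
Log2 ratio of replicate 1 over replicate 2 for each gene at a mean CPM of at least 10 in the heat-inducible, endoplasmic reticulum, mitochondrial, and synaptic vesicle and clathrin lists, with the list's median dashed. All points lie within 1 (2-fold) of 0, 6 of 8 endoplasmic reticulum genes lie above 0 and 6 of 7 heat-inducible genes below, and Hspe1, Hspd1 and Hspa8 stand in more than 1 list.

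With TMM scaling the mitochondrial genes fell on both sides of 0 and the 3 synaptic genes below it. So did 38 of the 59 chaperone genes and 4840 of all 9189 genes. All 9 mitochondrial genes were detected. At 68.4 and 72.8 TPM their median level was above that of the endoplasmic reticulum list, and their median log2 ratio was -0.13. Dnajc19 (0.32), Dnajc15 (0.25) and Hspe1 (0.16) lay above 0 and the other 6 below, Hspa9 the lowest at -0.34. The 3 synaptic vesicle and clathrin genes, Hspa8, Dnajc5 and Dnajc6, had log2 ratios of -0.17, -0.22 and -0.29 (median -0.22), and Hspa8 also stands in the heat-inducible list. With spike-in totals the ratios of Hspa8, Dnajc5 and Dnajc6 all turned, to 0.18, 0.13 and 0.07, and that of Hspa9 turned to 0.02. The direction of these lists therefore depends on the scaling.

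A few of the endoplasmic reticulum genes hold a known element in their promoters. The ER stress element, the composite site of the unfolded protein response, was searched as CCAAT, 9 bases of any kind (N) and CCACG, on either strand of the same windows. It stood in 39 of the 32851 windows (0.119%) and in 37 of the 27025 genes with a window (0.137%). Of the 65 chaperone genes with a window 3 held it: Hspa5, Hsp90b1 and Dnajc3. All 3 are among the 7 endoplasmic reticulum genes that had a window, and Dnajb9, Dnajb11, Dnajc1 and Dnajc10 had a window without it. Their stretches are shown on the strand of each gene, with the matches in capitals, because they include the main chaperones of that compartment. The log2 ratios of these 3 genes were 0.23, 0.23 and 0.29, and genes without the element were as high or higher, Dnajc10 at 0.29 and Dnajc1 at 0.69.
Hspa5, chr2:34772020-34772049, plus strand: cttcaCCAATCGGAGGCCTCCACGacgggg
Hsp90b1, chr10:86705510-86705694, minus strand: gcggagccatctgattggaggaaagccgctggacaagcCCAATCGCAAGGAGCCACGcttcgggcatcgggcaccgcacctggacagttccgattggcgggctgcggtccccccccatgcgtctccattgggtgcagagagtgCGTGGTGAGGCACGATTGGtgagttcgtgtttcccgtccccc
Dnajc3, chr14:118937732-118937931, plus strand: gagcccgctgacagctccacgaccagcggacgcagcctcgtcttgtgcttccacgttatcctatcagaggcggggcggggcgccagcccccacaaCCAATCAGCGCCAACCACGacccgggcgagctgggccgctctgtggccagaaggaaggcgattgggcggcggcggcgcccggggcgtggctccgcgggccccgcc
The Hspa5 match begins 65 bases before the RefSeq start and the Dnajc3 match 105 bases before it. Hsp90b1 has 2 matches, which begin 212 and 107 bases before its start, the nearer of them on the other strand.

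Transcript values, used for replicate 1 alone, show how much of each gene's TPM was assigned to transcripts annotated as coding, which can be partial. Of the 29 chaperone genes at a mean TPM of at least 50, 12 had a leading transcript that is annotated as protein-coding and held at least 90% of the gene's TPM. In 9 others the leading transcript was not coding or held less than 60%. Over all 66 genes detected in replicate 1, 42 had at least 90% of their TPM in coding transcripts and 9 had less than 50%. These 9 were Hsp90ab1, Hspa4, Hspa4l, Cct3, Cct6a, Dnajc1, Dnajc2, Dnajc15 and Dnajc24. For Hspa4l the share was 1.00%, because its leading transcripts are not in GENCODE M21 and have no class here.

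**Figure D5:**
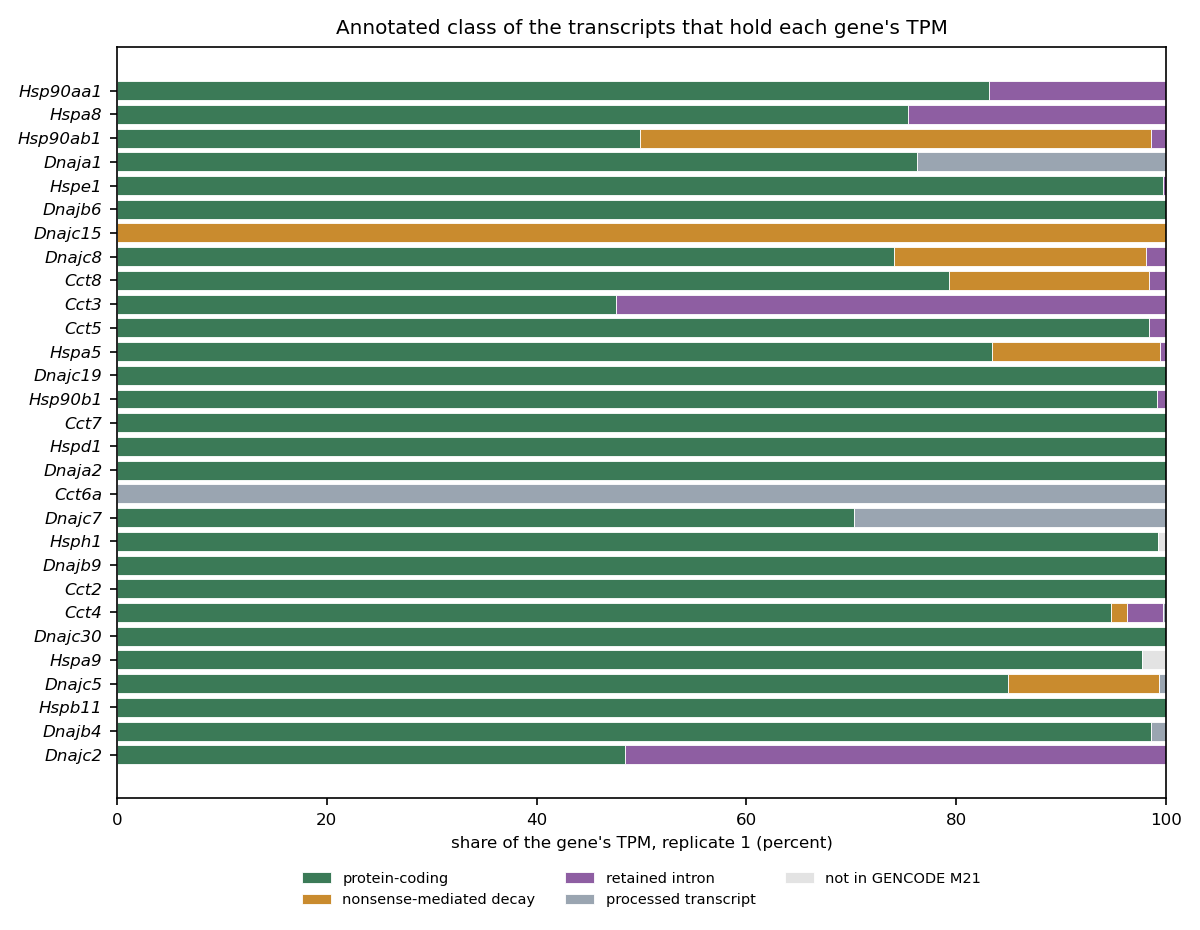
Share of each gene's TPM in replicate 1 (horizontal axis, percent) held by transcripts of each annotated class, for the 29 chaperone genes at a mean TPM of at least 50, ordered by level. Hsp90ab1, Cct3 and Dnajc2 divide close to evenly between coding and noncoding classes, and Dnajc15 and Cct6a have no coding class because their only listed transcript is annotated otherwise.

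The leading HSP90 genes were among those divided between transcripts. For Hsp90aa1 a short coding transcript of 711 nt held 45.0% of the TPM with 10864 estimated reads. Its coding transcripts of 2852 nt and 3281 nt held 26.4% and 10.4% with 28657 and 13101 reads. For Hsp90ab1 a coding transcript of 2520 nt held 49.4% with 27939 reads, and a 703 nt transcript of the nonsense-mediated decay class held 48.7% with 6874 reads. Hspa8 had 75.4% of its TPM in coding transcripts. Counted over all transcripts annotated as coding, Hsp90aa1 stood at 1639 TPM, Hspa8 at 1138 and Hsp90ab1 at 583. Of the Hsp90aa1 value 888 TPM lay in the 711 nt transcript, and the 2852 nt and 3281 nt transcripts held 520 and 206 TPM. The coding transcripts of Hspa8 of 2019 nt and 2394 nt held 1035 and 99.2 TPM, so the place of Hsp90aa1 above Hspa8 rests on the short transcript.

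A few other genes turned on short or noncoding transcripts. In Cct3 a retained-intron transcript of 472 nt held 51.1% of the TPM, while coding transcripts held 80.2% of the reads. Over coding transcripts alone Cct3 stood at 83.6 TPM, between Cct7 at 121 and Cct4 at 74.6. In Dnajc2 a retained-intron transcript led with 50.0%. The leading coding transcripts of Cct4, Dnaja1 and Dnajc7 held 55.7%, 45.9% and 54.7%. Dnajc15 and Cct6a have 1 transcript each in the table, annotated as nonsense-mediated decay and as processed transcript, although both genes encode proteins in RefSeq. For these genes the level of RNA that encodes the protein cannot be read from the gene value.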

How the data were processed

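Levels were described within 1 group of 2 libraries, so no comparison between conditions was made. The deposited gene tables give an expected count, the authors' estimate of the reads of a gene before any normalization. They also hold the authors' TPM, scaled over every feature of the file, and the deposited FPKM. The posterior SD of a count, a deposited signal in reads, showed how certain the assignment of reads was. For replicate 1 a deposited transcript table gives the percent of a gene's TPM in each transcript. Per the text files that accompany the deposited tables, the build was mm10 and the annotation GENCODE M4. The sources used here do not give the aligner, the quantifier or the use of strand. Reads carry no molecular identifiers, and depth was 24171434 and 27946180 estimated reads.

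Symbols came from GENCODE M21 on GRCm38 by gene identifier, and 42462 of 43346 matched. Of the 80 genes, 79 are coding in M21, and Cct6a was added because RefSeq has it as coding. Library sizes excluded 96 spike-ins and 26248 numeric identifiers. Hspa14 and protein sequences were not analysed here. Expected counts were rounded, then scaled by TMM (edgeR 4.0.16 in R 4.3.3), with DESeq2 1.42.0 size factors, total counts and spike-in totals as alternatives. Ratios used a pseudocount of 1 CPM, and their 95% intervals are exact conditional binomial (Clopper-Pearson) intervals. The ratio step was tested on simulated data. Promoter windows came from RefSeq on GRCm38.p6. Python 3.11.15 was used with pandas 2.3.3, scipy 1.17.1 and numpy 2.4.6.

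The genes and lists were chosen with earlier results of these data known. Named with values were every detected HSP90, HSP70, HSP110, HSP60, HSP10, CCT and small heat shock gene, all DNAJA genes, the 8 DNAJB and 12 DNAJC genes with the highest mean TPM, and the 3 highest and 3 lowest ratios. Of the co-chaperones the 8 highest, Hsf1 and Cryab were named, and for transcripts the genes at mean TPM of at least 50 whose leading transcript was not coding or held under 60%. Genes outside this rule were chosen after their values were seen.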

Additional observations from a re-analysis of the deposited data

How the results depend on the processing

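The number of genes detected (58 at TPM of at least 5 to 68 at 10 or more estimated reads) moved little under the alternatives tried. Over the single libraries the share of the leading 3 genes was 53.4% to 55.0% and the spread of the CCT ring 2.51 to 2.77. Without Tcp1 the spread was 2.52. FPKM is proportional to TPM within a library, so using it could not change this share or spread. Neither was taken over coding transcripts alone, where in replicate 1 Hsp90ab1 stood at 583 TPM and Cct3 at 83.6. The median level of 24.0 TPM (23.6 to 24.4 over the single libraries) depended on the unit and on which genes were taken. It was 19.6 as FPKM and 32.9 with TPM rescaled over coding genes, which rescale all genes of a library alike. In TPM it was 36.2 over detected genes only and 26.1 over genes whose posterior SD was at most 0.1 of the count. Without the 15 genes that share over 10% of their 31-base words with another gene it was 22.7, an alternative chosen after seeing the data. The count of genes at least 2-fold apart was 0, and it was 1 with spike-in totals (Dnajc1), 1 at a mean CPM of at least 1 and 1 with no filter (Hspb3), and 3 at 1.5-fold. The median log2 ratio turned from -0.09 to 0.27 with spike-in totals, which put 50 of 59 genes above 0, while its distance from the median of all genes stayed at -0.06. With those totals 31 of 63 named genes changed sign, against 0 with DESeq2 size factors and 1 with total gene counts, and 7.22% of all genes lay beyond 2-fold. No paired analysis was possible because there is 1 group of 2 libraries. Leaving out a library leaves 1, so ratios between libraries then have no value.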
